A study of Mus musculus with 931 samples.

Results

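A set of 9 genes that carry, activate or sense thyroid hormone and vitamin A were followed across the development of mouse pancreatic β and α cells. They were taken by symbol, 9 of the 40824 gene rows in the read count tables: the plasma carriers Ttr and Rbp4, the deiodinase Dio1, the thyroid hormone receptors Thra and Thrb, the retinoid X receptors Rxra and Rxrg, and the retinoic acid receptors Rara and Rarb. β cells came from Ins1-RFP mice (mixed C57BL/6 and C3H background), which carry a red reporter under the insulin 1 promoter. α cells came from Gcg-Cre, Rosa-RFP mice (mixed C57BL/6, CBA/J and C3H background), in which the red label marks any cell whose lineage has expressed the glucagon-driven Cre. No further genotype or treatment was given, and all groups carried a fluorescent reporter. The stages were embryonic (E17.5) and postnatal (P0, P3, P9, P15, P18 and P60, in days), and α cells were not collected at P3. Sorted β cells in bulk gave 14 libraries, 2 at each of 7 stages. Single cells, FACS-sorted or picked by hand and sequenced without molecular identifiers, gave 538 β cells in 25 collection batches and 328 α cells in 20 batches. A further 51 cells stood outside these groups: 26 labelled with more than 1 hormone, 21 enriched for proliferation and 4 endocrine progenitors from Ngn3-GFP mice (mixed C57BL/6 and C3H background).

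Transthyretin (Ttr) and retinol-binding protein 4 (Rbp4) travel in blood as a complex: Ttr binds thyroxine, and Rbp4 carries retinol out of the liver. Inside the cell, type 1 deiodinase (Dio1) removes iodine from thyroxine, yielding the active hormone triiodothyronine or an inactive form, and the receptors Thra and Thrb bind response elements in DNA, commonly as partners of Rxra or Rxrg. The retinoic acid receptors Rara and Rarb pair with the same retinoid X receptors, and thyroid hormone is known to promote postnatal maturation of β cells.

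Bulk libraries held 10261140 to 21440593 reads and batches of 5 to 39 cells held 5960449 to 49135936 reads. Levels below are CPM, read counts scaled to a fixed library total after TMM normalization, and levels are compared between genes only in TPM, which also divides by gene length. A batch was the replicate for single cells. No animal was named, so p-values measure the spread between batches or libraries, which may be technical. The summed CPM of 6 β markers was 175676 or more in every single-cell β batch, and that of 5 α markers 65601 or more in every α batch. Bulk libraries also held acinar enzymes, 262 to 69357 CPM summed over 14 genes, with means of 4210 at E17.5 and 56630 at P9. In bulk tissue or sorted pools, fewer cells of a type and less RNA per cell cannot be told apart.

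Rbp4 went down with age in β cells, and stayed present in every single-hormone α cell. The gene (ENSMUSG00000024990) lies at chr19:38116629-38125281 on the minus strand of GRCm38. In bulk β libraries its level was 537 and 515 CPM at E17.5, 210 and 228 at P0, 330 and 180 at P3, 96.6 and 91.7 at P9, 114 and 198 at P15, 176 and 93.2 at P18, and 21.5 and 26.5 at P60. The E17.5 libraries stood above all others and the P60 libraries below all others, while P3 overlapped P0 and P15, and P18 overlapped P15 and P9. The P60 mean was 21.9-fold below that of E17.5, a log2 change of -4.45 ± 0.39 (SE, n = 2 libraries a stage, adjusted p = 2.03e-05 in edgeR's quasi-likelihood test). The change was -2.48 ± 0.35 from E17.5 to P9 (adjusted p = 0.00164, edgeR) and -1.97 ± 0.35 from P9 to P60 (adjusted p = 0.00504, edgeR). With summed acinar markers as a covariate, the E17.5 to P9 change was -2.06 with adjusted p = 0.342, and 20 genes in all were called in place of 1316.

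Single β cells gave a deeper fall. Batch values of Rbp4 in β cells were 1038, 827 and 982 CPM at E17.5, 375, 363 and 294 at P0, and 128, 129, 79.3, 209 and 462 at P3. They were 57.3, 23.0 and 191 CPM at P9, 5.23, 7.90 and 0.523 at P15, 27.2, 1.97 and 11.8 at P18, and 8.39, 18.0, 3.74, 11.5 and 4.99 at P60. The 3 E17.5 batches stood apart from all later ones. P9 overlapped P3 and P18 but stood apart above P15 and P60, and P15, P18 and P60 overlapped each other. From E17.5 to P60 the mean went from 949 ± 109 (SD, n = 3) to 9.32 ± 5.70 CPM (n = 5), 102-fold lower, with a log2 change of -6.69 ± 0.67 (adjusted p = 4.73e-09, edgeR). The change was -7.18 in FACS-sorted batches alone and -6.40 in manually picked batches alone. The only FACS-sorted β batch was the third at E17.5 and the second at P9. Between E17.5 and P9 the change was -3.42 ± 0.72 (adjusted p = 0.00639, edgeR). It was -5.39 in FACS-sorted batches alone, and -2.89 (adjusted p = 0.0859, edgeR) in manually picked batches alone. Between P9 and P60 the change was -3.27 ± 0.60 (adjusted p = 0.00221, edgeR), but -2.12 (adjusted p = 0.175) without the third P9 batch, which held 191 CPM.

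In β cells the share of cells with an Rbp4 read fell along with the level. An Rbp4 read was found in 57 of 57 β cells at E17.5, 70 of 71 at P0, 72 of 88 at P3, 41 of 65 at P9, 14 of 57 at P15, 25 of 71 at P18 and 31 of 129 at P60. After every cell was thinned to 520690 reads, the depth of the shallowest cell, these shares were 100%, 96.1%, 80.1%, 60.2%, 17.1%, 28.6% and 20.1%. At 1 depth P15 and P60 changed places, and the other stages kept their order. Thinning evens total reads, not the reads left for other genes beside β markers. The sum of 6 β markers averaged 207057 CPM in single β batches at E17.5 and 738065 at P60. These CPM are TMM-scaled and are not shares of reads. The scaling factors were 1.20 to 1.32 at E17.5 and 0.696 to 0.798 at P60, so the markers' share of reads rose less than these CPM show. In α cells all 328 cells held an Rbp4 read.

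In α cells Rbp4 was lowest at P9 and P60, without passing the test. Batch values were 998, 2055, 892 and 1394 CPM at E17.5, 994, 1265 and 856 at P0, 318, 348 and 387 at P9, 1020 and 883 at P15, 1215, 684 and 675 at P18, and 637, 449, 360, 527 and 638 at P60. E17.5, P0, P15 and P18 overlapped, and P60 and P9 lay below them. The log2 change from E17.5 to P60 was -1.38 ± 0.54 (adjusted p = 0.0987, edgeR), and it passed when α batches were fitted alone (-1.33, adjusted p = 0.00209). Rbp4 overlapped between α and β cells at E17.5, where α cells held 1.41-fold the β level (log2 difference 0.53, adjusted p = 0.706, edgeR). At P60 α cells held 56.0-fold the β level (5.84 ± 0.63, adjusted p = 7.02e-09, edgeR), and the ranges were apart at 5 of 6 shared stages. The P60 over E17.5 change itself differed between the cell types by 5.31 ± 0.83 on the log2 scale (adjusted p = 7.71e-05, edgeR). It differed by 6.14 in FACS-sorted batches, with only the third E17.5 β batch. In manually picked batches, with only the fourth E17.5 α batch, it differed by 4.73.

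β cells labelled Ins1+, Sst+ held more Rbp4 than most of their batch mates. In these 11 cells, from E17.5 to P60, Rbp4 ran from 749 to 23785 TPM with a median of 2935. It was 2935 to 23785 TPM at E17.5, 4043 to 4214 at P0 and 944 to 1940 at P9. In 1 cell each, it was 1343 at P15 and 749 at P60. In 10 of the 11, it was above every single-hormone β cell of the same batch. The other, at E17.5, was above 19 of 21. At P60, for example, 1 such cell held 749 TPM while its 39 batch mates had a median of 0 and a maximum of 90.2. Summed δ-cell markers (4 genes, led by Sst) in bulk were 606 to 1354 CPM at E17.5, 1834 to 2869 at P15 and 737 to 779 at P60. In single β batches they were 0.123 to 7.41 CPM at P60 and 4.15 to 19.2 at E17.5, where Ghsr was at 0. At P15 mean Rbp4 was 156 CPM in bulk, 4.55 in single β batches and 952 in α batches. Summed α markers (5 genes) in bulk were 1258 to 2159 CPM at E17.5, 6093 to 14896 at P15 and 2909 to 3062 at P60. The part of δ or α transcripts in the bulk level of Rbp4 was not tested.

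Rbp4 and Dio1 were the members with the largest changes in β cells, so the bases just before their start sites are shown, from RefSeq promoters on GRCm38.p6. The Rbp4 run is chr19:38125322-38125571 and the Dio1 run is chr4:107307170-107307418, both on the minus strand, and neither overlaps an annotated exon.
Rbp4: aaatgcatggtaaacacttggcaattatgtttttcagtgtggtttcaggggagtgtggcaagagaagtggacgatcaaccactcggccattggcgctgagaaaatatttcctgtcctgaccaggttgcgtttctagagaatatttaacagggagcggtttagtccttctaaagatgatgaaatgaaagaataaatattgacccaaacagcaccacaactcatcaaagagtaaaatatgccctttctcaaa
Dio1: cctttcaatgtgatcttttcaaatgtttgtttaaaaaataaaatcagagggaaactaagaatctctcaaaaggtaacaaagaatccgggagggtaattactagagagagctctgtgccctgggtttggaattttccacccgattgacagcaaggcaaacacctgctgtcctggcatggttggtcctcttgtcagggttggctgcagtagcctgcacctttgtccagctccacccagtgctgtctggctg
The 3 motifs searched on both strands in windows of 300 bases were the half-site AGGTCA, its repeat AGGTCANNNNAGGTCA, and the retinoic acid repeat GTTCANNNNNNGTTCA, with the first contained in the second. None of the motifs was in either window, or in that of a second Rbp4 start site. Of 32851 promoters of that length, 16.3% held AGGTCA, 0.0152% held its repeat and 0.0761% the retinoic acid repeat. Absence says only that these letters are not there.

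**Figure D1:**
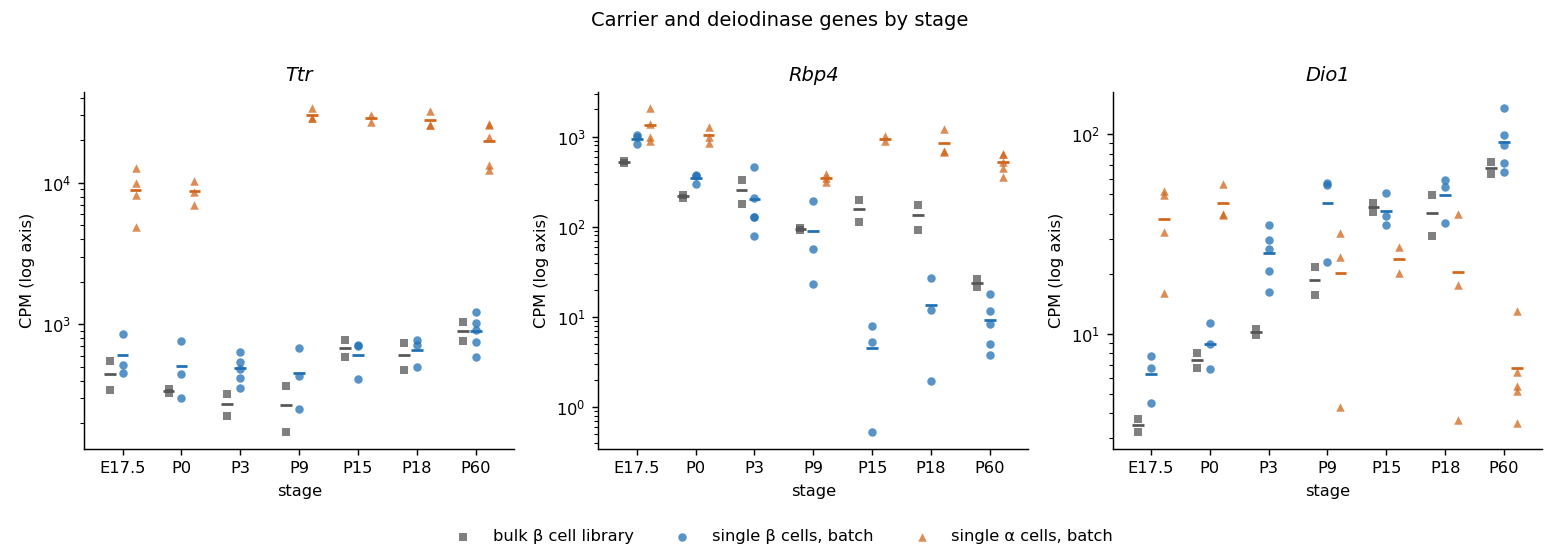
CPM (log axis) of Ttr, Rbp4 and Dio1 against stage, with 1 point per bulk library or single-cell batch and lines through the stage means. Rbp4 in single β cells goes from 949 to 9.32 CPM between E17.5 and P60 while α cells stay between 318 and 2055, and Dio1 crosses over between α and β cells.

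Dio1 moved opposite ways in the cell types, up with age in β cells and down in α cells. The gene (ENSMUSG00000034785) lies at chr4:107291465-107307169 on the minus strand. In bulk β libraries it held 3.76 and 3.21 CPM at E17.5, 6.74 and 8.05 at P0, 9.91 and 10.6 at P3, 15.6 and 21.5 at P9, 40.8 and 45.5 at P15, 49.9 and 30.9 at P18, and 72.7 and 62.9 at P60. Each stage stood apart from the next in this order except P15 and P18, which overlapped. The P60 mean was 19.4-fold that of E17.5, a log2 change of 4.27 ± 0.27 (adjusted p = 2.49e-06, edgeR). The change was 2.40 ± 0.26 from E17.5 to P9 (adjusted p = 0.000345, edgeR) and 1.87 ± 0.24 from P9 to P60 (adjusted p = 0.000966, edgeR). With the acinar covariate the first was 2.14 with adjusted p = 0.177.

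Batches of single β cells held 6.76, 7.71 and 4.50 CPM of Dio1 at E17.5, 8.88, 11.3 and 6.65 at P0, and 20.5, 16.2, 29.5, 26.5 and 35.1 at P3. They held 22.8, 56.8 and 55.5 at P9, 38.8, 50.7 and 34.9 at P15, 54.7, 58.9 and 36.0 at P18, and 88.2, 65.0, 71.4, 99.4 and 135 at P60. The P60 batches were above all others. P3 lay below P18 while both overlapped P9. P15 overlapped P3, P9 and P18, and P0 and E17.5 overlapped below them. The change from E17.5 to P60 was 3.78 ± 0.58 on the log2 scale (adjusted p = 2.12e-05, edgeR). It was 3.45 in manually picked batches and 4.63 in FACS-sorted batches, where E17.5 had only the third batch. From P9 to P60 it was 1.00 ± 0.50 (adjusted p = 0.523, edgeR). The share of β cells with a Dio1 read went from 29.8% at E17.5 through 52.3% at P3 and 68.4% at P15 to 91.5% at P60, and thinning to 1 depth left 28.7%, 51.4%, 68.0% and 90.8%.

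In α cells Dio1 was 51.8, 32.5, 49.9 and 16.0 CPM at E17.5, 39.8, 39.6 and 56.4 at P0, 24.2, 31.9 and 4.29 at P9, 20.1 and 27.1 at P15, 40.0, 3.71 and 17.6 at P18, and 13.0, 5.48, 6.44, 5.16 and 3.60 at P60. Every neighbouring pair of stages in the order of means overlapped, but P60 lay wholly below E17.5. The log2 change from E17.5 to P60 was -2.33 ± 0.46 (adjusted p = 0.000705, edgeR), a mean 5.58-fold lower. It was -2.42 (adjusted p = 0.0945, edgeR) in FACS-sorted batches alone. In manually picked batches alone, where E17.5 had only the fourth batch, it was -1.51. A read was found in 73.8% of α cells at E17.5 and in 20.5% at P60, or 73.0% and 17.3% after thinning. Transcripts typical of hepatocytes, 8 genes led by Serpina1b and Fgb, moved the same way: they summed to 161 to 543 CPM in α batches at E17.5, 133 to 256 at P0 and at most 51.1 later, with Fgg and Ahsg at 0 at E17.5. Alb, the liver's main plasma protein, averaged 11.8 CPM there. Their part in the Dio1 result was not tested.

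At E17.5 Dio1 was 5.93-fold higher in α than in β cells (log2 difference 2.33 ± 0.56, adjusted p = 0.00501, edgeR). The difference was 3.28 in FACS-sorted batches, where β cells had only the third batch at E17.5. In manually picked batches, where α cells had only the fourth, it was 1.16. The call was lost without the third β batch (2.00, adjusted p = 0.0609, edgeR). At P60 it was 13.6-fold higher in β cells (-3.77 ± 0.46, adjusted p = 1.35e-07, edgeR). The change with age differed between α and β cells by -6.10 ± 0.75 (adjusted p = 1.53e-06, edgeR), and by -7.05 and -4.96 in FACS-sorted and manually picked batches. Across the 6 shared stages α was apart above β at E17.5 and P0, β apart above α at P15 and P60, and P9 and P18 overlapped.

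**Figure D2:**
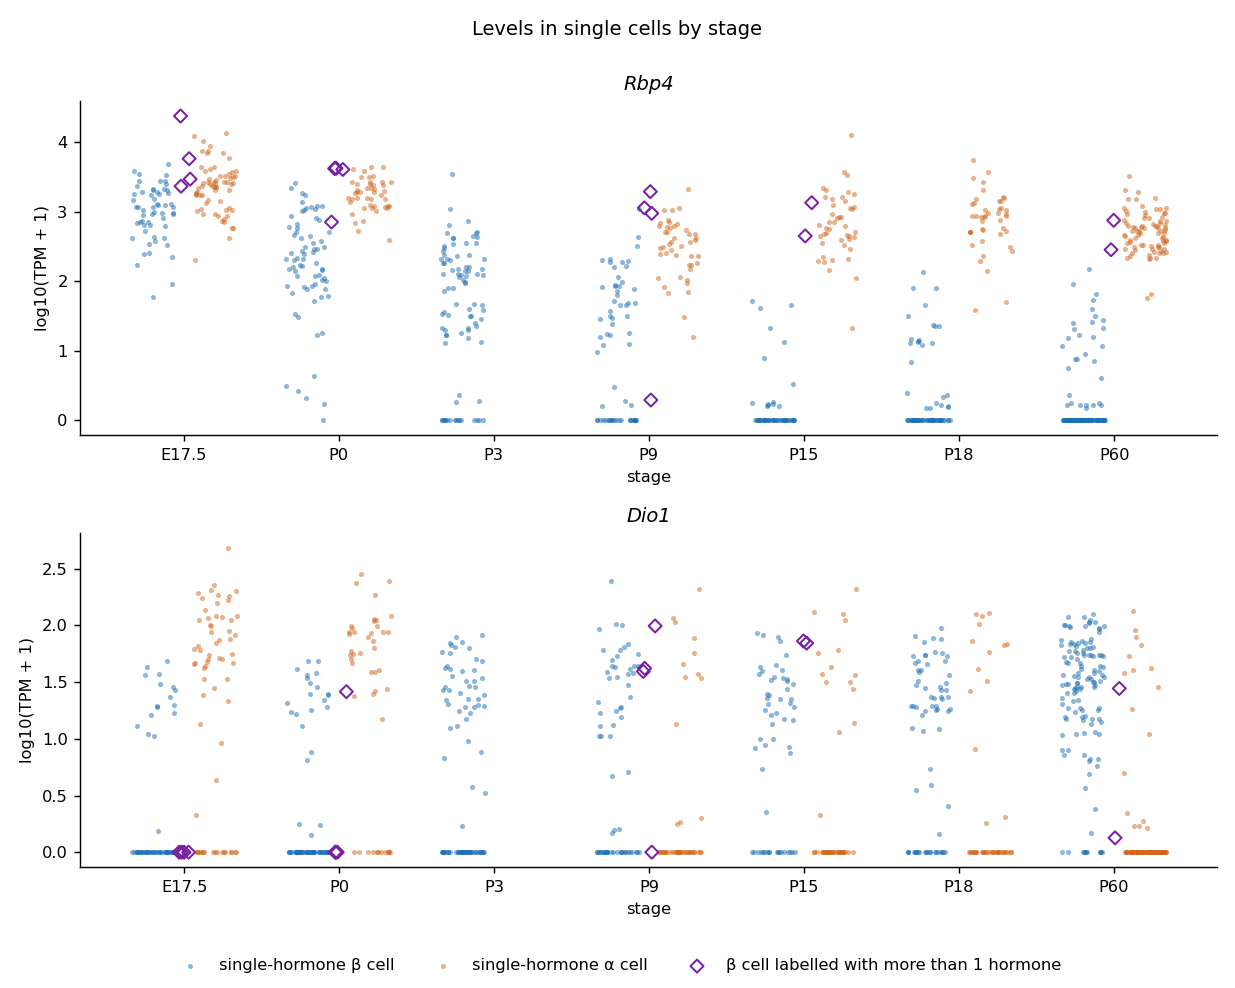
Level in each single cell as log10(TPM + 1) against stage, for single-hormone β cells, single-hormone α cells and, as open diamonds, β cells labelled with more than 1 hormone. Most β cells have no Rbp4 read from P15 on, whereas all diamonds at those stages hold Rbp4 reads. Dio1 appears in a growing share of β cells and a shrinking share of α cells.

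Ttr was higher in α than in β cells at each of the 6 shared stages. The gene (ENSMUSG00000061808) lies at chr18:20665280-20674321 on the plus strand. In α batches it held 8171, 12641, 9997 and 4835 CPM at E17.5, 7002, 8683 and 10380 at P0, 28623, 33604 and 28739 at P9, 29991 and 27066 at P15, 25827, 25582 and 32122 at P18, and 13288, 21006, 12390, 25942 and 25598 at P60. P9 stood apart above E17.5 and P0, while P60 lay below P9 and P15 and overlapped P18 and E17.5. The change from E17.5 to P9 was 1.79 ± 0.32 on the log2 scale (3.40-fold, adjusted p = 0.000544, edgeR). It was 1.61 in FACS-sorted and 2.55 in manually picked batches, where only the fourth batch stood at each stage. From E17.5 to P60 it was 1.20 ± 0.30 (adjusted p = 0.00629, edgeR). This call was lost without the fourth E17.5 α batch (0.98, adjusted p = 0.0519), in FACS-sorted batches alone (0.93, adjusted p = 0.0847), and when each cell had equal weight on the log2(TPM + 1) scale (0.06, adjusted p = 0.886 in limma).

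In single β cells Ttr ranged from 250 to 1216 CPM over all 25 batches. Neighbouring stages overlapped throughout. At E17.5 the batches held 511, 452 and 857 CPM, at P9 432, 683 and 250, and at P60 751, 584, 905, 1216 and 1017. The P60 over E17.5 change of 0.57 ± 0.31 was not called (adjusted p = 0.325, edgeR), and its sign depended on the scale: mean TPM, which is not TMM-scaled, was 854 at E17.5 and 530 at P60. Ttr was read in every cell of both types. It was 14.7-fold higher in α than β cells at E17.5 (log2 difference 3.83 ± 0.38, adjusted p = 1.91e-09, edgeR), 66.6-fold at P9 and 22.0-fold at P60 (4.46 ± 0.31, adjusted p = 1.37e-13, edgeR), and α batches were above all β batches at 6 of 6 stages. At P60 both collection methods alone gave 4.43.

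Bulk β libraries held 546 and 345 CPM of Ttr at E17.5, 351 and 326 at P0, 321 and 224 at P3, 366 and 172 at P9, 588 and 773 at P15, 734 and 475 at P18, and 1030 and 767 at P60. From P9 to P60 Ttr rose by 1.74 ± 0.37 on the log2 scale (adjusted p = 0.0105, edgeR), or 1.35 with adjusted p = 0.0542 without the second P9 library. From E17.5 to P60 the change was 1.01 ± 0.36 (adjusted p = 0.0547, edgeR). α markers were also present in these libraries, 5 genes summing to 1258 to 2159 CPM at E17.5, 1755 to 3029 at P9, 6093 to 14896 at P15 and 2909 to 3062 at P60, against 4.02 to 256 CPM in single β batches at P60. Their part in the bulk level of Ttr was not tested.

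Of the thyroid hormone receptor genes, Thrb was higher at P60 than at E17.5 in bulk β cells. Thrb (ENSMUSG00000021779, chr14:17660261-18038090, plus strand) held 7.69 and 6.56 CPM in bulk at E17.5, 5.76 and 3.46 at P0, 7.97 and 7.43 at P3, 6.83 and 9.28 at P9, 10.6 and 11.4 at P15, 12.4 and 11.9 at P18, and 18.8 and 20.3 at P60. P60, P18, P15 and the earlier stages formed separate steps. Thrb rose 2.74-fold from E17.5 to P60 (log2 change 1.45 ± 0.26, adjusted p = 0.00198, edgeR) and by 1.28 ± 0.26 from P9 to P60 (adjusted p = 0.00961, edgeR). The E17.5 to P60 call had adjusted p = 0.0558 with the acinar covariate, and the P9 to P60 call was lost without the first P9 library (1.09, adjusted p = 0.0867) or the second P60 library (1.25, adjusted p = 0.0649).

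Thrb in single β cells was 0, 0.101 and 3.42 CPM at E17.5 and 6.67, 12.0, 10.4, 6.98 and 15.3 at P60. The P60 batches were above every earlier β batch, and the share of β cells with a read was 10.5% at E17.5 and 39.5% at P60. The change of 3.24 ± 1.32 did not pass (adjusted p = 0.147, edgeR). It depended on the third E17.5 batch, without which it was 7.14 with adjusted p = 0.0143, and it was 1.68 (adjusted p = 0.94, edgeR) in FACS-sorted and 6.98 (adjusted p = 0.00689, edgeR) in manually picked batches. In α cells Thrb varied more between batches than between stages, from 3.10 to 16.3 CPM at E17.5 and from 3.60 to 20.6 at P60 (log2 change 0.83, adjusted p = 0.705, edgeR).

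Thra, which encodes the more widely expressed thyroid hormone receptor (ENSMUSG00000058756, chr11:98740638-98769006, plus strand), was called in 1 of 12 comparisons. In bulk it held 55.2 and 60.0 CPM at E17.5, 81.4 and 57.1 at P3, 58.9 and 56.5 at P9, 42.9 and 45.3 at P18, and 40.9 and 32.5 at P60. P60 lay below all other stages, but the E17.5 to P60 change of -0.65 ± 0.23 narrowly missed the threshold (adjusted p = 0.0554, edgeR) and passed in DESeq2 (adjusted p = 0.032). In single cells at P60, α batches held 20.0, 13.6, 14.6, 33.8 and 14.7 CPM and β batches 4.91, 15.4, 5.58, 6.55 and 6.38. The second β batch fell within the α range. The log2 difference of 1.33 ± 0.46 passed narrowly (adjusted p = 0.0494, edgeR) and did not pass in 13 of 19 other settings, with adjusted p up to 0.329. Thra shares 263 exon bases, 5.70% of its own, with Nr1d1 on the opposite strand. The strand setting of the counting is not given in the sources used here, so Thra counts are uncertain: Nr1d1 averaged 21.5 CPM in bulk at E17.5, 228 at P0 and 98.9 at P60.

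**Figure D3:**
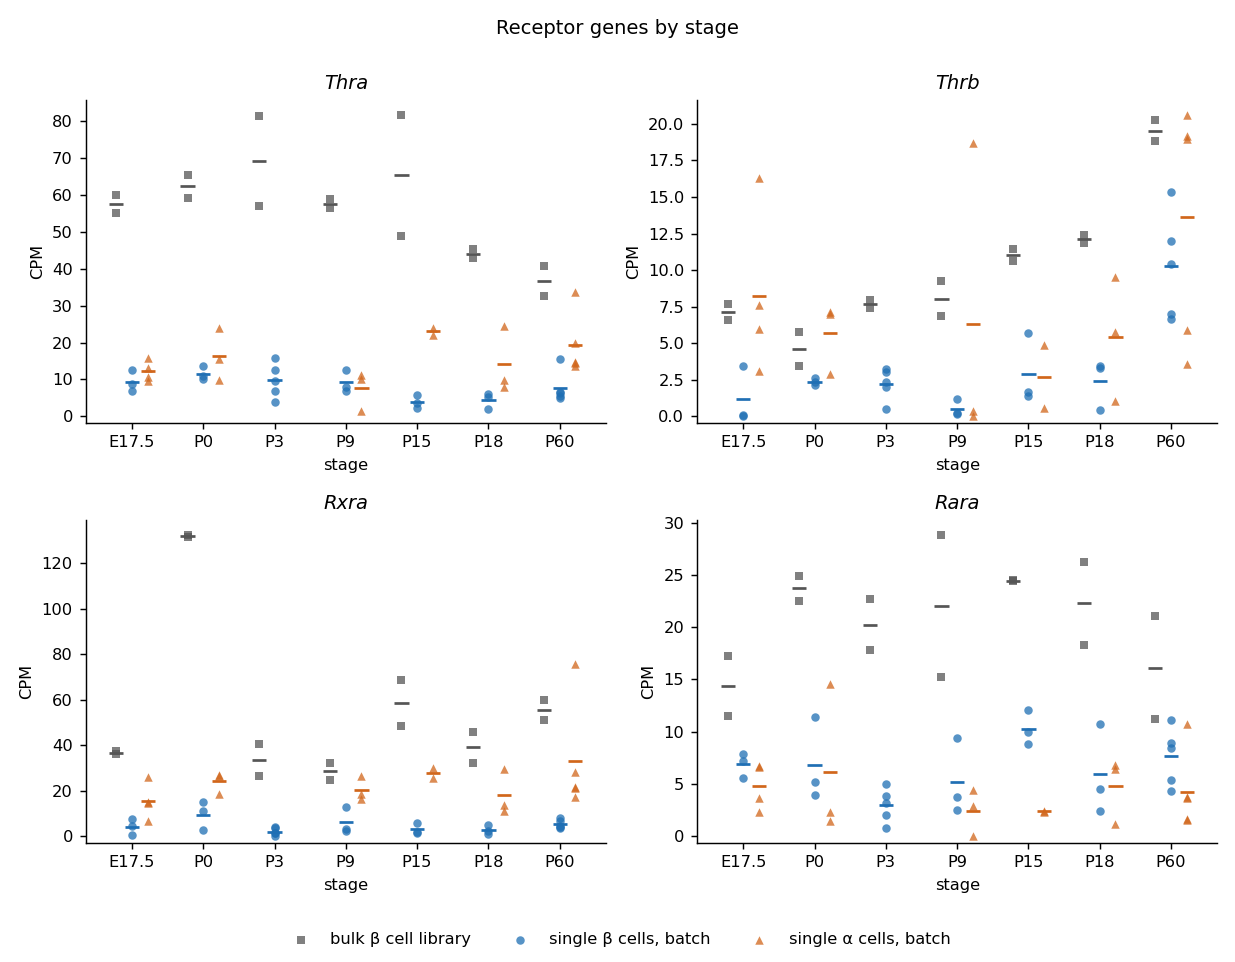
CPM of the receptor genes against stage, with 1 point per bulk library or single-cell batch and lines through the stage means. Thrb is highest at P60 in bulk and in single β cells, and Rxra peaks at P0 in bulk. Rxrg and Rarb are not drawn.

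Rxra, the main partner of both receptor classes in many tissues, was higher in α than in β cells. The gene (ENSMUSG00000015846) lies at chr2:27676440-27762957 on the plus strand. At P60 α batches held 76.0, 21.3, 21.8, 28.5 and 17.3 CPM and β batches 4.74, 6.80, 8.05, 3.63 and 4.29. The groups did not overlap, and the first α batch stood far above the others. The log2 difference was 2.58 ± 0.69 (adjusted p = 0.0082, edgeR), a 5.99-fold ratio of means. Without the first α batch it was 1.99 with adjusted p = 0.0514, and it was 3.33 (adjusted p = 0.166, edgeR) in FACS-sorted and 1.93 (adjusted p = 0.0624, edgeR) in manually picked batches. α batches were apart above β batches at 5 of 6 stages, with E17.5 overlapping, and a read was found in 44.4% to 69.6% of α cells and 11.3% to 31.0% of β cells, depending on stage.

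In bulk, Rxra was 36.0 and 37.3 CPM at E17.5, 132 and 132 at P0, 40.4 and 26.7 at P3, 32.3 and 25.0 at P9, 48.5 and 68.8 at P15, 32.3 and 45.8 at P18, and 59.8 and 51.2 at P60. The P0 libraries stood above all others. Markers of other cell types had their highest bulk means at P0 as well, summing to 325 and 1129 CPM for 6 mesenchymal genes, 71.9 and 167 for 6 immune genes and 50.4 and 155 for 6 endothelial genes, and mesenchymal markers also reached 1187 in 1 P3 library. In single β batches at P0 each sum was at most 4.33 CPM. Their part in the bulk level of Rxra was not tested. From P9 to P60 Rxra rose by 0.95 ± 0.24 on the log2 scale (adjusted p = 0.0221, edgeR), a call that was lost without any 1 of the 4 libraries (adjusted p from 0.0586 to 0.101). In single β cells P0 batches held 11.2, 2.60 and 15.0 CPM and overlapped P9, which held 3.07, 2.37 and 13.0. AGGTCA matched the promoter windows of Rxra at 87 bases before its second start site on the opposite strand and at 48 bases before it on the same strand, and that of Thrb at 184 bases before its first start site. A window of Rxrg and one of Rara also held 1 match each.

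Rara (ENSMUSG00000037992, chr11:98927818-98974942, plus strand) was called in 0 of 12 comparisons, with 0 at an unadjusted p under 0.05 in edgeR and 0 calls in DESeq2. Its bulk values ran from 11.2 to 28.8 CPM, and at P60 from 4.33 to 11.2 in β and from 1.52 to 10.8 in α batches. At P15, β batches at 9.93, 12.1 and 8.80 CPM lay above α batches at 2.35 and 2.47, the only stage at which the types were apart. The P60 over E17.5 change was 0.17 ± 0.35 in bulk (adjusted p = 0.766, edgeR). With cells at equal weight on log2(TPM + 1), Rara was called lower in α cells than at E17.5. The change was -0.93 at P60 (adjusted p = 0.00203, limma) and -0.84 at P9 (adjusted p = 0.0152, limma). From E17.5 to P60 that fit called far more of all genes, mostly lower. The share of α cells with a Rara read was 38.5% at E17.5 and 14.5% at P60, or 36.7% and 13.6% after thinning.

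Rxrg and Rarb were at or near the detection floor. Rxrg (ENSMUSG00000015843, chr1:167598384-167639623, plus strand) had at most 0.187 CPM in any bulk library and a read in 22 of 917 cells, and did not pass the low-count filter. Rarb (ENSMUSG00000017491, chr14:16430839-16819156, minus strand) had 1 and 0 reads in the E17.5 bulk libraries, 16 and 5 at P3, and 0 in all 4 libraries at P18 and P60. It was read in 31 of 917 cells, and its exons share 1793 bases (34.1%) with Top2b and 227 bases (4.31%) with Gm48162 on the opposite strand, so these reads are uncertain. Rarb is itself a classic target of retinoic acid through a direct repeat in a promoter of 1 of its isoforms. That repeat is shown in capitals within 30 bases of the minus strand at chr14:16575506-16575535, 52 bases before the start site.
Rarb: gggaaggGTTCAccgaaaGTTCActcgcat
It was the 1 window among those of 7 matched members that held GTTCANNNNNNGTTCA, which 25 of all 32851 promoters hold. No β batch at P9 or P15 had a Rarb read.

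Per transcript length, Ttr and Rbp4 had the highest levels in α cells at P60, and Ttr and Dio1 in β cells. At P60 in α cells mean TPM was 21718 for Ttr and 589 for Rbp4, against 10.8 for Thra, 10.0 for Rxra, 5.89 for Dio1, 3.04 for Thrb and 1.87 for Rara. In β cells at P60 it was 530 for Ttr and 39.0 for Dio1, above 5.59 for Rbp4, 2.38 for Thra, 1.67 for Rara, 1.24 for Thrb and 0.829 for Rxra. At E17.5 the β order differed, with Rbp4 first at 1339 TPM, Ttr at 854, and Dio1 at 6.67 next to Thra at 6.78.

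Of the 9 genes, 8 passed the low-count filter in each data set. Those that passed did so partly through the groups where they are high. Each count of members stands beside the share of all tested genes called higher or lower, out of 16086 in bulk and 18537 in single cells. In bulk P60 against E17.5, 2 members were called higher (13.8% of genes) and 1 lower (15.2%), with a median log2 change of 0.38 for the members and -0.03 for all genes, of which 29.1% were called. In bulk P9 against E17.5, 1 was higher (4.69%) and 1 lower (3.49%), with 8.18% of genes called. In bulk P60 against P9, 4 were higher (6.79%) and 1 lower (9.43%), with 16.2% called.

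In single β cells, 1 member was higher (3.08%) and 1 lower (3.88%) at P60 than at E17.5, with 6.96% of genes called, and 1 was higher (0.707%) and 1 lower (0.545%) at P9 than at E17.5, with 1.25% called. From P9 to P60, 1 was lower (0.453%) and 0 higher (0.173%), with 0.626% called. In α cells, 1 was higher (4.3%) and 1 lower (5.66%) at P60 than at E17.5, with 9.97% called, and 1 was higher (2.18%) and 0 lower (1.31%) at P9 than at E17.5, with 3.48% called. From P9 to P60, 0 were called in α cells, against 0.281% of genes higher, 0.566% lower and 0.847% either way. In that last comparison 2 members had an unadjusted p under 0.05 in edgeR, and 0 passed in DESeq2.

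Between the cell types at E17.5, 2 members were higher in α cells (3.25%) and 0 lower (5.05%), with 8.3% of genes called. At P60, 4 were higher (5.92%) and 1 lower (7.02%), with 12.9% called. In the difference of the changes with age, 1 was higher in α cells (2.02%) and 1 lower (1.65%), with 3.67% called. Within bulk and within single cells, these comparisons share samples. The median log2 change of the tested members was 0.45 in single β cells and 0.14 in α cells from E17.5 to P60, against -0.013 and -0.0028 for all genes. Between α and β cells the members' median was 2.09 at E17.5 and 1.38 at P60, against 0.063 and 0.016 for all genes. Of the genes called, 44.2% were higher at P60 than at E17.5 in β cells and 43.2% in α cells. With each cell at equal weight on the log2(TPM + 1) scale these were 5.8% and 4.7%, the median of all genes moved to -0.31 and -0.44, and the Rbp4 changes were -9.22 and -2.26.

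**Figure D4:**
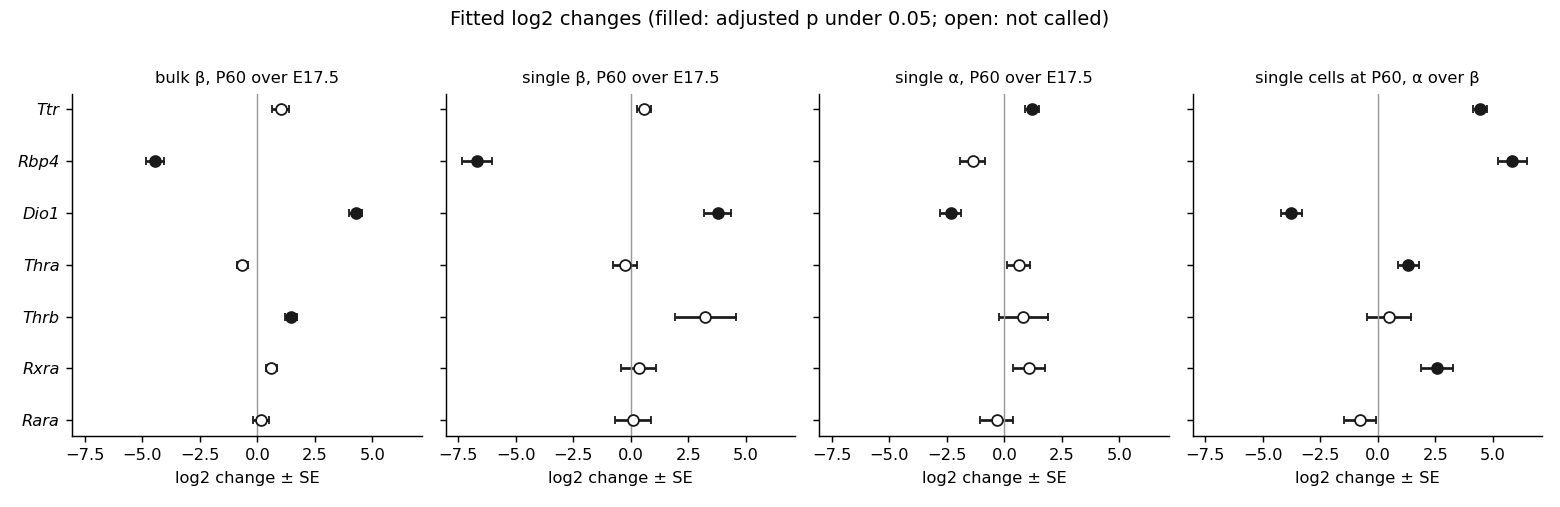
Fitted log2 changes ± SE of the tested genes by comparison, filled where adjusted p was under 0.05 and open where not called. Rbp4 and Dio1 have opposite signs in β cells over E17.5 to P60 (-6.69 and 3.78), and Dio1 has the opposite sign in α cells (-2.33).

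The genes of other steps in both pathways were taken from lists. Among 8 genes listed under transport of thyroid hormone across the membrane, 6 were tested. In bulk β cells at P60, compared with E17.5, 4 were higher and 1 lower (median log2 change 0.58), against 13.8% and 15.2% of all genes. Slc7a8 rose from 158 ± 12.4 to 326 ± 27.4 CPM and Slc16a10 from 258 ± 32.3 to 526 ± 26.0 (SD, n = 2). In single β cells 1 of 6 rose (3.08% of all genes), Slc16a10, from 127 to 202 CPM. In α cells 3 of 6 rose (4.3% of all genes): Slc7a8 from 86.0 to 422 CPM (log2 change 2.18), Slc3a2 from 90.4 to 259 (1.56) and Slc16a10 from 200.4 to 413 (0.90). At P60, 3 of 6 were higher in α than in β cells and 2 lower (5.92% and 7.02% of all genes). Slc16a10 and Slc7a8 were higher in α cells by 1.03 and 0.97 on the log2 scale, and Slc7a5 was lower, at 12.8 against 62.5 CPM.

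Of 8 genes of thyroid hormone metabolism and binding, Dio2 and Dio3, the other deiodinases, stayed at or under 1.38 and 1.86 CPM in every library and batch. In bulk 1 of 4 tested fell from E17.5 to P60 (15.2% of all genes), Trh, the thyrotropin-releasing hormone gene, from 173 reads at E17.5 to 1 at P60. In α cells 1 of 5 fell (5.66% of all genes), Iyd, an iodotyrosine deiodinase, from 361 reads to 0. Among 9 receptor co-regulators changes were small. In bulk Ncoa3 rose, with a log2 change of 0.48, and Tbl1xr1 fell, with a log2 change of -0.57, with 1 of 9 higher and 2 lower in all (13.8% and 15.2% of all genes). From E17.5 to P60, 0 of the 9 were called in single β or α cells (edgeR, 1 at an unadjusted p under 0.05 in each). Of all genes, 6.96% and 9.97% were called there.

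Thyroid hormone response genes rose in 3 of 8 cases in bulk from E17.5 to P60 and none fell (median 0.85), against 13.8% and 15.2% of all genes. Klf9, a transcription factor gene induced by thyroid hormone and also by glucocorticoids, rose from 18.4 ± 2.81 to 94.5 ± 8.23 CPM (SD, n = 2). Me1, encoding malic enzyme, rose from 12.7 to 32.1 CPM, and Thrsp from 4 to 60 reads. In single β cells 0 of 8 were called (median 0.95, with 4 at an unadjusted p under 0.05 in edgeR), against 6.96% of all genes. In α cells 1 of 8 was higher (4.3% of all genes), Klf9, from 2.14 ± 2.51 to 21.1 ± 17.8 CPM. At P60, 1 of 8 was lower in α than in β cells (7.02% of all genes), Atp2a2, the calcium pump of the endoplasmic reticulum, 67.7 against 469 CPM (-2.79 ± 0.23, adjusted p = 2.49e-11, edgeR).

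On the retinoid side, 11 genes of uptake, storage and binding gave 1 rise and 3 falls among 7 tested in bulk from E17.5 to P60 (median -1.65), against 13.8% and 15.2% of all genes. Fabp5, a fatty acid and retinoic acid carrier, fell from 15.0 to 1.60 CPM in bulk, from 4.77 to 0.478 in single β cells and from 3.32 to 0.425 in α cells. Stra6, the membrane receptor for Rbp4, had 21 reads in the 2 E17.5 bulk libraries and 0 at P60. In α cells 3 of 8 fell (5.66% of all genes), among them Fabp5 and Bcmo1, which cleaves β-carotene to retinal, from 57.5 ± 9.70 to 2.37 ± 2.42 CPM (-4.70 ± 0.85, adjusted p = 0.000221, edgeR).

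Among 15 genes of retinoic acid synthesis and clearance, Adh1, an alcohol dehydrogenase that can oxidise retinol, rose in β cells. It went from 578 to 6441 reads in bulk and from 7.94 ± 5.23 (n = 3) to 200.5 ± 46.0 CPM (n = 5) in single β cells, a log2 change of 4.65 ± 0.63 (adjusted p = 2.65e-06, edgeR). It was the 1 gene of 11 tested that was called in single β cells from E17.5 to P60 (6.96% of all genes), and at P60 it was lower in α cells, at 30.2 CPM (-2.76, adjusted p = 3.09e-05, edgeR). In bulk 2 of 13 rose and 1 fell, near the 13.8% and below the 15.2% of all genes. The other riser, Aldh1a3, which makes retinoic acid from retinal, held 6.86 and 35.4 CPM in the P60 libraries and a mean of 0.631 at E17.5. In α cells 2 of 11 fell (5.66% of all genes): Dhrs4 from 38.1 to 13.9 CPM and Adh7 from 614 reads to 0.

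Of 9 retinoic acid response genes only 4 were tested, and 1 fell in bulk (15.2% of all genes), Tgm2, a transglutaminase, from 20.5 to 5.05 CPM. In the list of Rxr partners, 5 of 12 rose in bulk and none fell (median 0.46), against 13.8% and 15.2% of all genes. Vdr, the vitamin D receptor, rose in all 3 data sets: from 171 to 429 CPM in bulk, from 72.2 to 189 in single β cells (1.39 ± 0.30, adjusted p = 0.00222, edgeR) and from 31.8 to 106 in α cells (1.78 ± 0.28, adjusted p = 3.19e-05, edgeR). Pparg, the receptor that drives fat cell formation, rose in bulk from 0.433 to 7.53 CPM and had 483 reads in β and 0 in α batches at P60. Rarg, the third retinoic acid receptor, rose in α cells from 1.01 ± 0.719 to 16.5 ± 6.16 CPM.

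The genes most like each member over the 45 batches are given as a description, since batches share cell type and stage. For Ttr they included Ndst4 and Edn3, each with a Pearson r of 0.96 on log2(CPM + 1), but 0.39 and 0.32 in bulk. For Rbp4 they included Fev, a transcription factor gene, and Ffar4, a fatty acid receptor gene (0.93 and 0.92), which had 0.81 and 0.95 over the 14 bulk libraries. For Dio1 the closest was Pde8a, a cAMP phosphodiesterase (0.76, and 0.94 in bulk), ahead of Tnfrsf21 (0.70, but -0.10 in bulk) and Gstm1 (0.69, and 0.79 in bulk). For Rxra they were Gcg, Igsf21 and Nxph1 (0.85, 0.83 and 0.82), none above 0.18 in bulk. For Thrb and Rara the highest r was 0.66 and 0.63, with Flywch1 and Calcoco1.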

How the data were processed

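The authors deposited gene read counts for 14 bulk libraries and 917 single cells, with a length per gene. GRCm38 is the genome build, and DESeq (1.20.0), HTSeq (0.6.0) and TopHat2 (2.1.0) the tools, that the submitters' processing notes list, without roles. The bulk kit kept strand, per the labels' protocols, and whether counting used it is not given in the sources used here. Reads are not molecules, so counting error is understated. The deposited counts were summed over the 866 unselected single-hormone cells of each of 45 batches, and 92 spike-in rows (median 2.72% of a cell's reads) were left out.

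Bulk libraries and batches were fitted separately with edgeR 4.0.16 (R 4.3.3): TMM, a low-count filter, quasi-likelihood tests, Benjamini-Hochberg adjustment over 16086 and 18537 genes, and a call at adjusted p under 0.05. The batch fit carried the collection method. Gene length, deposited by the authors in bases, gave TPM. Alternatives used DESeq2 1.42.0, limma 3.58.1, other scalings, subsets of batches and left-out replicates. In simulated data with known changes edgeR recovered 190 of 200 genes changed 4-fold in bulk (15418 genes) and 125 of 200 changed 16-fold in batches (16999 genes), with 7 and 4 false calls. Every simulated gene had the same dispersion, 0.07 in bulk and 0.65 in batches, and no effect of collection method was put in. Changed genes were drawn only above a CPM cutoff, so these numbers do not cover genes near the floor.

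The members and lists were chosen with earlier results of these data known. Named are all 9 members, up to 3 called genes of smallest p per pathway list and comparison, and the 3 genes most like each member of at least 5 CPM, among genes of at least 10 CPM. Some genes that this rule names are not reported here. No 2 libraries or cells held identical counts. Equal replicate numbers are not stated to pair samples. Deviations from group means correlated from -0.14 to 0.43 in 21 bulk pairs, 7 of them above 0.1, which does not settle pairing in bulk. In 217 batch pairs the correlations ran from -0.07 to 0.10.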

Additional observations from a re-analysis of the deposited data

Results flagged for a closer look

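In 6 of 35 groups of 4 or 5 batches checked by Dixon's test, 1 batch lay far from the others. In α cells at P60 these were the first batch for Rxra, at 76.0 CPM against 17.3 to 28.5 in the others, the third batch for Rara, at 10.8 CPM, and the second batch for Rarb, at 2.01 CPM against 0. In β cells at P60 they were the second batch for Thra, at 15.4 CPM against 4.91 to 6.55, and the fourth batch for Rxrg, at 0.0395 CPM against 0. With all other batches at 0, as for Rxrg here and Rarb in α cells, the test ratio is 1 whatever the level. Only 1 of 129 β cells held an Rxrg read and 1 of 83 α cells a Rarb read. In β cells at P3 the fifth batch held 5.06 CPM of Rarb.

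The change from E17.5 to P60 differed between α and β cells for Dio1, by -6.10 on the log2 scale (adjusted p = 1.53e-06, edgeR), and for Rbp4, by 5.31 (adjusted p = 7.71e-05, edgeR), each by a test of the difference itself.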

How the results depend on the processing

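Of 27 calls on members, 12 held in every alternative and 15 were lost in at least 1. Those of Rbp4 and Dio1 in α minus β held in all 26, from 4.73 to 6.96 and from -7.05 to -4.96. Those of Ttr in α against β cells held in all 16 at E17.5 and all 19 at P60. The counts that follow lack the share of all genes called in the same fit, so they describe the fits and not the members. The number of members called was 3 in bulk from E17.5 to P60, and 6 with no low-count filter and 5 in DESeq2. From E17.5 to P9 it was 2 in bulk, and 0 with the acinar covariate. In FACS-sorted batches alone it was 0 in place of 2 for α cells from E17.5 to P60 and 3 in place of 5 between the types at P60. In manually picked batches alone it was 1 for β cells from E17.5 to P9 and 3 between the types at P60. These subsets hold fewer samples. FACS-sorted β cells and manually picked α cells had only 1 batch at E17.5 and at P9, and subset counts of members that rest on those groups are left out. DESeq2 gave 3 in place of 1 for β cells from P9 to P60 and 2 in place of 1 for α cells from E17.5 to P9, as did α batches fitted alone. With cells at equal weight on log2(TPM + 1) it was 3 for β cells from P9 to P60 and 4 between the types at E17.5. In α cells it was 4 from E17.5 to P60 and 5 from E17.5 to P9. Calls over all genes in α cells from E17.5 to P60 rose several-fold in that fit too, as given below. Thra in α cells turned from 0.62 to -0.92 (adjusted p = 0.042, limma), while the median of all genes moved to -0.44. The cause was not tested.

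Leaving out 1 replicate at a time gave 3 in every case in bulk from E17.5 to P60, 2 from E17.5 to P9 and 3 to 4 from P9 to P60. It gave 2 to 3, 1 to 2 and 0 to 1 in β cells for the same comparisons, 1 to 2, 1 and 0 to 1 in α cells, 2 and 3 to 5 between the types at E17.5 and P60, and 2 for α minus β. The Dio1 rise in β cells from E17.5 to P9 was lost without the third E17.5 batch (2.49, adjusted p = 0.0605), and Rbp4 there without the first or second P9 batch (adjusted p = 0.058 and 0.0891). Dio1 in α cells from P9 to P60 was called without 1 P9 batch (-1.93, adjusted p = 0.0494).

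With the replicate block, Ttr in bulk from E17.5 to P60 was called (1.03, adjusted p = 0.0209) and Thra between the types at P60 was not (1.38, adjusted p = 0.0536). No other call on a member changed under the block, and whether the numbers pair samples is not stated.

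Calls over all genes moved by more than 1.5 times in several fits. In bulk, 4676 became 1028 with the acinar covariate and 2522 to 3032 without 1 library (E17.5 to P60), 1316 became 2131 without a filter, 20 with the covariate and 356 to 602 without 1 library (E17.5 to P9), and 2610 became 583 to 1519 without 1 library (P9 to P60). In β cells from E17.5 to P60, 1291 became 1953 in DESeq2, 150 in FACS-sorted and 584 in manually picked batches, and 6439 with equal weights. In α cells 1848 became 573, 743 and 9254 in the last 3. Between the types at P60, 2399 became 892 and 1256 in the subsets.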

Other observations

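Cells outside the main groups gave further values for Rbp4 and Dio1. The 4 endocrine progenitors at P0 all held an Rbp4 read and 1 held a Dio1 read. Of the β cells enriched for proliferation, 9 of 9 at P0 and 6 of 12 at P9 held an Rbp4 read, and 5 of 9 and 6 of 12 a Dio1 read. The 5 α cells labelled Gcg+, Ghrl+ had 1387 to 5047 TPM of Rbp4 and 1544 to 13342 TPM of Ttr, and 1 of them held a Dio1 read. The 2 cells labelled Gcg+, Ppy+, Sst+ had 3216 and 3882 TPM of Rbp4. Of the 2 β cells labelled Ins1+, Gcg+, 1 held 20303 TPM of Ttr and the other 2097, both above the median of 421 TPM in the 11 labelled Ins1+, Sst+.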
